A study of Mus musculus with 14 samples.

Results

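The response of fibroblasts to 3 h of TNFα was measured by comparing 2 groups of cultures that both carried wild type p65, 3 treated with mouse TNFα at 30 ng/ml for 3 h and 3 left without TNFα (0 h). The comparison uses 6 of the 14 arrays of the series. The cells were *p65*(-/-) NIH 3T3 mouse embryonic fibroblasts (MEFs), whose own *Rela* gene for p65 is inactivated, and which had been infected with a lentivirus carrying a myc-tagged human p65. They were blasticidin-selected pools rather than clones, and all cultures were starved overnight, so the 0 h cultures were starved as well. The remaining arrays hold cells with the acetylation-deficient p65 mutants KTR (3 arrays) and K314/315R (2 arrays), or with the empty vector pTV (3 arrays) and hence without p65. These were all taken at 3 h of TNFα, and no unstimulated culture of them was analysed here, so for these lines only levels at 3 h can be given.

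TNFα binds its receptors on the cell surface and activates IκB kinase, which marks the IκB inhibitors for degradation and lets NF-κB dimers such as p65/p50 enter the nucleus. Among the best known NF-κB targets are the genes of the IκB proteins and of A20, which shut the pathway off again, and those of chemokines, cytokines, adhesion molecules and survival factors. The same receptors also activate the MAP kinases JNK, p38 and ERK, which act on AP-1 and on the immediate early genes. Fibroblasts are tissue cells that answer TNFα by recruiting leukocytes and by releasing enzymes that remodel the matrix.

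Of 41174 probes, 22172 were tested, because the scanner software marked them well above background, called detected below, throughout at least 1 of the 5 groups. They stood for 15278 gene names. TNFα raised 250 probes (212 gene names) and lowered 94 (84 gene names), at more than 1.8-fold and an adjusted p under 0.05 in limma. This was 1.13% and 0.424% of the tested probes, and no gene name was called in both directions. Among the called probes detected on all 6 arrays, 196 raised and 80 lowered, 20 rose more than 4-fold and 124 between 2- and 4-fold, whereas 1 fell more than 4-fold and 46 between 2- and 4-fold. Their median log2 fold change was 1.17 for raised and −1.08 for lowered probes, beside −0.04 over all tested probes, with quartiles of −0.17 and 0.12. The 3 h arrays and the 0 h arrays did not overlap at any called probe, which also held for 30.4% of all tested probes.

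**Figure D1:**
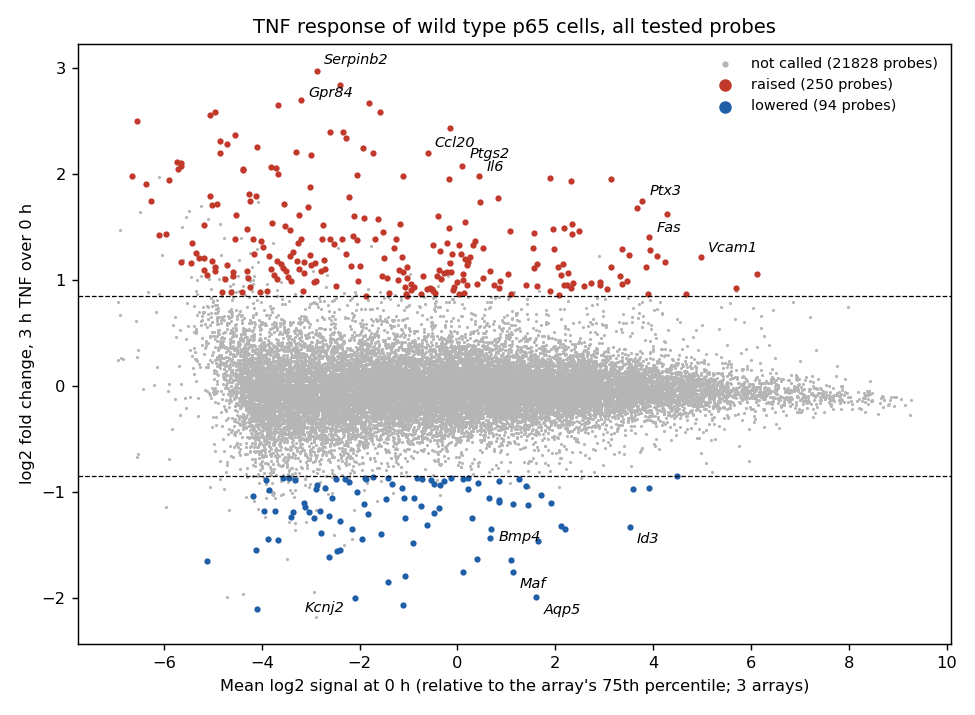
Each point is 1 of the tested probes, with its mean log2 signal on the 3 wild type arrays at 0 h on the x axis (0 is the array's 75th percentile) and its log2 fold change after 3 h of TNFα on the y axis. Dashed lines mark 1.8-fold. Of the 250 raised probes (red) and 94 lowered probes (blue), those detected on all 6 arrays reach 2.97 and −2.06, and most probes lie close to 0. The fitted values of probes near background are not exact folds.

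Replicates 1, 2 and 3 of both time points lay on slides 1, 2 and 3, so that each slide gives a difference of its own. The sign was the same on the 3 slides for 249 of 250 raised and for all 94 lowered probes, and the remaining probe, of *Cxcl10*, had no value on slide 1 and was higher at 3 h on the others. Each wild type group always had the same position on its slide, so position and time point cannot be told apart. The 75th percentile intensity was 967 to 1228 on the 6 arrays, and 53.2 to 57.0% of the probes were well above background. Of the raised probes, 32 were well above background on no 0 h array, and 7 of the lowered on no 3 h array, and for those the fold is given only as a lower bound. The cultures were fibroblasts by their markers, with 11 of 12 fibroblast genes tested and none called. Of 8 macrophage genes, *Ptprc*, *Adgre1*, *Itgam*, *Lyz2* and *Tyrobp* were not detected throughout any group. The other 3 were tested, and 2 of these were not called, with log2 changes of 0.05 and 0.17. *Mrc1* alone of the list was called, at least 1.48-fold up from a 0 h level that was not well above background. The summed macrophage signal was 0.188 to 0.201 of the 75th percentile at 0 h and 0.21 to 0.247 at 3 h, whereas the fibroblast sum was 1310 to 1500 and 1160 to 1320.

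Genes were then grouped by function in 20 lists. Lists and members were chosen with earlier results of these data known, so their shares are a description and were not tested. In a list each gene counts by its brightest tested probe, and on that basis 1.24% of all gene names were raised and 0.471% lowered. The share of raised genes was well above this in the lists for inflammatory enzymes (9 of 21), cytokines (8 of 21), adhesion and pattern recognition receptors (9 of 24), proteases and their inhibitors (8 of 26), NF-κB factors (6 of 22), immediate early factors (10 of 39) and chemokines (5 of 21). No member was called in either direction in the lists for cell cycle (37 genes), collagens and matrix (36), contractile proteins (20), cholesterol and fatty acid synthesis (26), MHC class I antigen processing (18) and housekeeping (15). Lowered genes were found in 4 lists, as described further on.

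**Figure D2:**
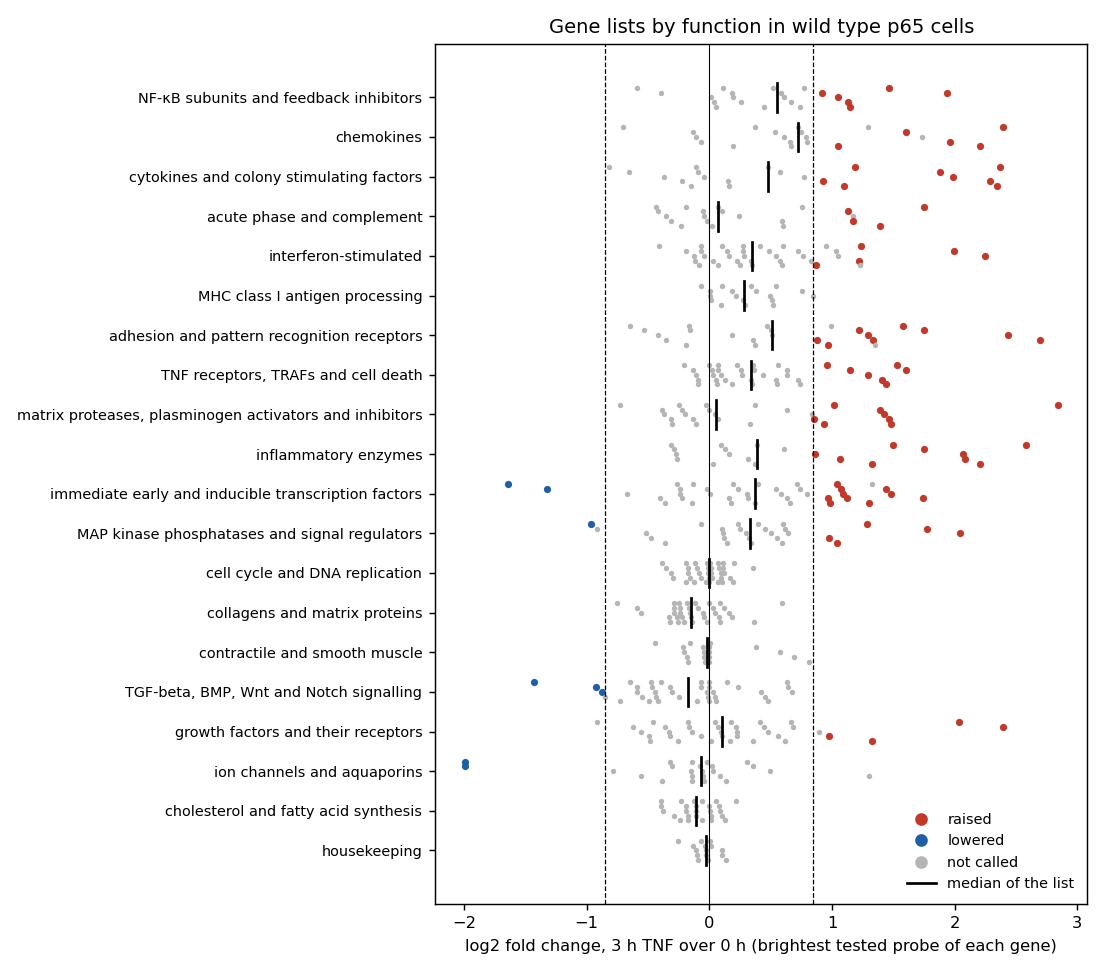
Each point is 1 gene of a list (rows), placed by the log2 fold change of its brightest tested probe after 3 h of TNFα (x axis), with the median of the list as a black bar and 1.8-fold as dashed lines. Red points are raised and blue points lowered genes, and the cell cycle list stays between −0.38 and 0.36.

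To show what lies in front of the raised genes, the promoters of 6 of them are given, chosen because they encode feedback inhibitors (*Nfkbie*, *Tnip1*), chemokines (*Cxcl10*, *Ccl20*), a cytokine (*Il6*) and a receptor (*Tlr2*) and hold a κB match. Each is the 250 bases before the gene's start in RefSeq (GRCm38.p6), in lower case with matches to the κB consensus, the decamer that NF-κB binds, in capitals.
Nfkbie: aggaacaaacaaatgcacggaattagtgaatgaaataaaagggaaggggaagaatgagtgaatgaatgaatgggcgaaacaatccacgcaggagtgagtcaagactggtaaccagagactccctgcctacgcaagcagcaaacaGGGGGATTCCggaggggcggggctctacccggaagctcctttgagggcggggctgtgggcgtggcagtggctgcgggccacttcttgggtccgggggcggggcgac
Tnip1: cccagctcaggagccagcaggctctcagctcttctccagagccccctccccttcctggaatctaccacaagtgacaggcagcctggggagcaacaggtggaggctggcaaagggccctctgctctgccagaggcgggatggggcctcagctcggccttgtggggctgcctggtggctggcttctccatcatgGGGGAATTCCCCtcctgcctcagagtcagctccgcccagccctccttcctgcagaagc
Cxcl10: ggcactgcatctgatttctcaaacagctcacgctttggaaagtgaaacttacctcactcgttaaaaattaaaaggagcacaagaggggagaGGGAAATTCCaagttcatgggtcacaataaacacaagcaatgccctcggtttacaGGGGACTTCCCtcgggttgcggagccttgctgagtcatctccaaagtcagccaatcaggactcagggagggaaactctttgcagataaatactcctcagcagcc
Ccl20: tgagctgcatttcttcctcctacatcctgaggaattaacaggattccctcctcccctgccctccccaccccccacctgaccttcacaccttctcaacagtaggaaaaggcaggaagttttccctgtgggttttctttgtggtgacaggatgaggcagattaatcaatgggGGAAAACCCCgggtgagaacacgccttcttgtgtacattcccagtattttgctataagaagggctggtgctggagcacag
Il6: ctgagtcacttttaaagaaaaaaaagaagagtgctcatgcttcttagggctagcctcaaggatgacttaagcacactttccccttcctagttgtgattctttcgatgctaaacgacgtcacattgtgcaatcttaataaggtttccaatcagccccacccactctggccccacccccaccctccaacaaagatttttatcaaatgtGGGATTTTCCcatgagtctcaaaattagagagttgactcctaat
Tlr2: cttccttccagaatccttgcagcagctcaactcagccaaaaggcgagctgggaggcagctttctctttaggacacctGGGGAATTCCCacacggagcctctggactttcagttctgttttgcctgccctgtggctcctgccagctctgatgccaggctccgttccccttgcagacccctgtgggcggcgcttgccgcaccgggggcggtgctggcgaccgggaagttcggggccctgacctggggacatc
The locations are chr17:45555450-45555699 (plus strand) for *Nfkbie*, chr11:54962941-54963190 (minus strand) for *Tnip1*, chr5:92348890-92349139 (minus strand) for *Cxcl10*, chr1:83116516-83116765 (plus strand) for *Ccl20*, chr5:30012864-30013113 (plus strand) for *Il6* and chr3:83841609-83841858 (minus strand) for *Tlr2*. In *Cxcl10* the matches began at −159, −104 and −103 from the start, and in *Tnip1* at −58, −57 and −56, where 3 overlapping matches form 1 stretch. The match in *Il6* began at −44, in *Ccl20* at −80, in *Nfkbie* at −106 and those in *Tlr2* at −173 and −172.

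RefSeq windows were at hand for 145 of the 212 raised and 56 of the 84 lowered gene names. Searched on both strands over the same 250 bases, the κB consensus was found in 36 of 196 windows of raised genes (18.4%) and 6 of 78 windows of lowered genes (7.69%). It was also found in 8.98% of the 12143 windows of all tested genes and in 7.25% of all 32851 windows. The AP-1 motif TGANTCA was found in 12.8% of the windows of raised and 10.3% of those of lowered genes, beside 4.74% of those of all tested genes and 6.75% of all. *Mmp3*, *Mmp10*, *Mmp13*, *Plaur* and *Serpinb2* were among the raised genes that held it. The CRE motif TGACGTCA was in 4.59% and 1.28% of the windows, beside 2.45% of all tested, and *Areg*, *Maff*, *Dusp8* and *Errfi1* held it. The interferon-stimulated element, searched as GAAA, any 2 bases and GAAA, was in 7 of the 196 windows (3.57%), *Gbp2* and *Gbp5* among them, and in 2.61% of those of all tested genes. A match is a description of letters and not a measured binding site, and genes with several starts count with several windows.

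The inhibitors that close the NF-κB loop were raised in part. *Tnfaip3*, which encodes the ubiquitin-editing enzyme A20, had log2 signals (relative to the 75th percentile of each array, here and below) of 2.37, 2.35 and 2.26 at 0 h and 4.45, 4.12 and 4.24 at 3 h. No array of one time point came near the other, and the gene rose 3.83-fold (log2 fold change 1.94, standard error 0.14, adjusted p = 1.68e-05). *Nfkbie*, the gene of IκBε, went from 2.42, 2.47 and 2.58 to 3.9, 4.02 and 3.95 (log2 fold change 1.47, standard error 0.22, adjusted p = 0.00232), and *Nfkbib*, the gene of IκBβ, from 1.64, 1.57 and 1.67 to 2.84, 2.76 and 2.73 (log2 fold change 1.15, standard error 0.09, adjusted p = 2.81e-05). The A20-binding proteins *Tnip1* (2.19-fold) and *Tnip3* (2.07-fold) and the subunit *Relb* (1.89-fold) completed the 6 raised genes of 22. Genes named without a value per array in this and the following paragraphs were in part chosen after their values were seen. *Nfkbia*, the classical IκBα target, was already bright at 0 h (6.14, 6.33 and 6.14) and measured 6.97, 6.86 and 6.77 at 3 h. Its change of 1.58-fold had an adjusted p of 0.00505 but lay under 1.8-fold, as did *Nfkb1* (1.5-fold) and *Nfkb2* (1.71-fold). The brighter of the mouse *Rela* probes read 1.04, 0.97 and 1.03 at 0 h and 1.52, 1.52 and 1.54 at 3 h, a log2 difference of 0.52 with an adjusted p of 0.123, where the standard error over all 5 groups was 0.17. Cells with pTV, which lack p65, read 1.0, 1.19 and 1.34 at 3 h (adjusted p = 0.213 against wild type cells), and it is not known whether the probe reads the human transgene.

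Among the chemokines, which draw leukocytes to a tissue, 5 of 21 tested genes rose and none fell. *Ccl3*, which attracts monocytes and lymphocytes, was at −2.26, −2.71 and −2.04 at 0 h and at 0.24, −0.22 and 0.16 at 3 h (log2 fold change 2.4, standard error 0.44, adjusted p = 0.00828). *Ccl20*, the ligand of CCR6, rose from −0.64, −0.23 and −0.96 to 1.64, 1.66 and 1.49 (log2 fold change 2.2, standard error 0.19, adjusted p = 5.52e-05). Every 3 h array was above every 0 h array in both genes, as at every raised probe. *Cxcl10* and *Cxcl11*, ligands of CXCR3, rose, and *Cxcl9*, another, was not tested. *Cxcl10* read 2.01, 2.05 and 1.59 at 0 h and 4.03 and 3.66 on the 2 arrays that gave a value at 3 h (log2 fold change 1.96, standard error 0.2, adjusted p = 0.000455), its spot on replicate 1 being marked as an outlier. *Cxcl11* read −1.78, −2.15 and −2.39 and −0.25, −0.44 and −0.82 (log2 fold change 1.6, standard error 0.22, adjusted p = 0.00129), and *Ccl9* rose 2.07-fold. *Ccl2*, the monocyte attractant, read 8.23, 7.93 and 7.81 at 0 h and 9.02, 8.61 and 8.6 at 3 h. Its log2 change of 0.75 (adjusted p = 0.0464) stayed under 1.8-fold, as did those of *Ccl7* (0.79), *Ccl17* (0.72) and *Cx3cl1* (0.79). *Cxcl1*, at 5.92, 5.94 and 5.74 and then 6.5, 6.59 and 6.33, and *Cxcl3*, at −3.71, −4.02 and −4.49 and then −2.24, −2.3 and −2.48, were not called (adjusted p = 0.612 and 0.192). Their 3 h arrays lay above their 0 h arrays, but the error, which is estimated over all 5 groups, gave standard errors of 0.48 and 0.66.

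Of the cytokines and colony stimulating factors, 8 of 21 rose, and 5 without wild type 3 h replicate 1. *Csf2*, the gene of GM-CSF, which expands granulocytes and macrophages, changed from −2.24, −2.13 and −2.45 to 0.05, −0.04 and 0.19 (log2 fold change 2.34, standard error 0.12, adjusted p = 1.71e-06). *Il6*, a pleiotropic cytokine that drives the acute phase response, changed from 0.62, 0.34 and 0.36 to 2.67, 2.21 and 2.39 (log2 fold change 1.98, standard error 0.24, adjusted p = 0.000700). The arrays at each time lay close together in both genes. *Csf3*, the gene of G-CSF, reached −2.16, −2.76 and −2.36 from −4.89, −4.12 and −5.14 and was well above background on 1 of the 3 arrays at 0 h (log2 fold change 2.29, standard error 0.38, adjusted p = 0.00505). *Tnfsf11*, the gene of RANKL, which makes osteoclasts mature, had both of its probes raised. One, well above background on 1 of the 3 arrays at 0 h, gave −4.59, −4.31 and −4.78 at 0 h and −2.32, −2.22 and −2.02 at 3 h (log2 fold change 2.37, standard error 0.19, adjusted p = 4.1e-05). For the other, dim on all 0 h arrays, the rise was at least 4.76-fold. Its call was lost in 6 of 16 settings besides the normexp fit of all spots, with an adjusted p of up to 0.0601. The other raised members were *Tslp* (3.68-fold), which acts on dendritic cells, *Ebi3* (2.27-fold), a subunit of IL-27 and IL-35, *Il15* (2.14-fold) and *Csf1* (1.9-fold), the macrophage growth factor. Of the 8 raised members, 5 were well above background on all 0 h arrays. The lowest mean at 0 h was −5.02, and the fold of a member that dim is not exact. *Tnf* itself, *Il1a*, *Il1b* and *Ifnb1* were not detected throughout any group and were not tested. *Kitl*, at −0.82 (adjusted p = 0.0502), and *Il7*, at −0.65 (adjusted p = 0.00751), had the lowest log2 values of the list, and neither was called.

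Receptors and adhesion molecules rose in 9 of 24 cases. *Gpr84*, a receptor for medium-chain fatty acids on inflamed cells, changed from −3.17, −3.24 and −3.17 to −0.34, −0.74 and −0.41 (log2 fold change 2.7, standard error 0.14, adjusted p = 1.71e-06). *Icam1*, the ligand by which leukocyte integrins hold on to a cell, was raised at both probes, the brighter changing from 0.1, −0.03 and −0.51 to 2.44, 2.3 and 2.12 (log2 fold change 2.43, standard error 0.23, adjusted p = 0.000122). *Vcam1*, which binds VLA-4, was bright before treatment and went from 4.78, 5.14 and 5.0 to 6.13, 6.17 and 6.27 (log2 fold change 1.22, standard error 0.15, adjusted p = 0.000770), and its 3 tested probes all rose. The selectins, known mainly from endothelium, were measured as well. *Selp* changed from −1.61, −1.82 and −1.45 to 0.07, −0.16 and −0.06 (log2 fold change 1.58, standard error 0.17, adjusted p = 0.000243), and *Sele* from −4.42, −3.44 and −4.86 to −2.64, −2.19 and −2.64 (log2 fold change 1.75, standard error 0.36, adjusted p = 0.0153). *Sele* was well above background on 1 of the 3 arrays at 0 h. None of the 6 endothelial markers *Pecam1*, *Cdh5*, *Kdr*, *Tek*, *Tie1* and *Emcn* was detected throughout a group. Their summed signal was 0.0744 to 0.0997 at 0 h and 0.0657 to 0.12 at 3 h, and its part in the result was not tested. The pattern receptors *Nod2* (2.52-fold), *Tlr2* (2.45-fold) and *Nod1* (1.83-fold), which sense bacterial products, were raised, as was the hyaluronan receptor *Cd44* (1.95-fold). *Tlr4* (−0.16), *Myd88* (0.51) and *Cd14* (0.36) gave log2 changes that were not called.

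Genes of TNF receptor signalling and cell death rose in 7 of 37 cases. *Ripk2*, the kinase that carries NOD signals, changed from −0.38, −0.51 and −0.3 to 1.18, 1.17 and 1.28 (log2 fold change 1.61, standard error 0.09, adjusted p = 3.58e-06). *Traf1*, an adaptor of the receptors, changed from 2.25, 2.41 and 2.33 to 3.76, 3.92 and 3.92 (log2 fold change 1.53, standard error 0.1, adjusted p = 7.16e-06). No 3 h array overlapped a 0 h array in either, which held for all called probes. The death receptor *Fas* was high at 0 h (4.15, 3.76 and 3.86) and rose further (5.63, 5.1 and 5.25, log2 fold change 1.41, standard error 0.26, adjusted p = 0.00828), and *Cd40*, dim at 0 h, rose at least 2.01-fold. The list held genes with opposite known roles, since the survival gene *Birc3* (2.45-fold) and *Ier3* (2.72-fold) rose beside the pro-apoptotic *Bid* (1.94-fold). The receptors *Tnfrsf1a* (0.07) and *Tnfrsf1b* (0.07), *Cflar* (0.05), *Bcl2l1* (0.06) and the superoxide dismutase *Sod2* (0.72, adjusted p = 0.0111) were not called on the log2 scale given.

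Enzymes of inflammation had the highest share of raised genes, 9 of 21. *Irg1* (now *Acod1*), which makes itaconate, read −1.39, −1.42 and −1.95 at 0 h and 1.1, 1.04 and 0.85 at 3 h at its brighter probe (log2 fold change 2.58, standard error 0.2, adjusted p = 2.25e-05). *Ptgs2*, the gene of the inducible cyclooxygenase, changed from −0.02, 0.2 and 0.12 to 2.14, 2.03 and 2.37 (log2 fold change 2.08, standard error 0.19, adjusted p = 8.35e-05). *Ptges*, which turns its product into prostaglandin E2, rose at least 1.08-fold from a level not well above background. *Nos2*, the inducible nitric oxide synthase, changed from −3.0, −3.68 and −3.22 to −0.74, −1.46 and −1.07 (log2 fold change 2.21, standard error 0.28, adjusted p = 0.000846), and *Gch1*, which makes the cofactor that this enzyme needs, rose 2.51-fold. *Arg2*, which uses the same substrate arginine, changed from −3.76, −3.8 and −3.89 to −1.73, −1.95 and −1.57 (log2 fold change 2.06, standard error 0.23, adjusted p = 0.000303). The 3 h arrays stood apart from the 0 h arrays in each, as they did at every called probe. Cholesterol 25-hydroxylase *Ch25h* rose 2.82-fold and the metallothioneins *Mt2* and *Mt1* 2.09- and 1.82-fold, whereas *Hmox1* (0.09), *Ptgs1* (−0.29) and *Ass1* (0.39) were not called.

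Acute phase and complement genes rose in 4 of 21 cases, and in 2 without wild type 3 h replicate 1 or wild type 0 h replicate 3. *Ptx3*, a soluble pattern receptor, rose from 4.05, 3.64 and 3.64 to 5.87, 5.43 and 5.28 (log2 fold change 1.75, standard error 0.18, adjusted p = 0.000268), and *Cfb*, the factor B of the alternative complement pathway, from −1.04, −0.95 and −1.77 to 0.46, 0.18 and −0.23 (log2 fold change 1.39, standard error 0.23, adjusted p = 0.00419). *Saa3* was at 4.47, 4.27 and 3.99 before and at 5.84, 5.26 and 5.14 after (log2 fold change 1.17, standard error 0.23, adjusted p = 0.0131), and *Saa1*, whose probe may share signal with near-identical family members, rose 2.19-fold. The remaining 17 of 21 tested members were not called, among them *C3* (0.1), *C4b* (−0.31) and *Hp* (0.02), and *Lcn2*, with −0.05, −0.44 and −0.07 at 0 h and 1.3, 0.7 and 0.95 at 3 h (adjusted p = 0.0668). *C3* and *C4b* encode central complement components, and their adjusted p was 0.888 and 0.615.

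Interferon-stimulated genes were raised in 5 of 38 cases, a count that depended on single arrays. The guanylate-binding GTPase genes *Gbp5* (−2.0, −1.62 and −2.15 at 0 h and 0.55, 0.44 and −0.02 at 3 h, log2 fold change 2.25, standard error 0.48, adjusted p = 0.0194) and *Gbp6*, listed on the array as *Mpa2l* (−1.79, −1.74 and −2.6 and 0.49, −0.16 and −0.48, log2 fold change 1.99, standard error 0.45, adjusted p = 0.0262), were raised. So were *Gbp2* (4.26, 4.21 and 3.78 and 5.72, 5.17 and 5.06), *Ifi47* (2.33-fold) and the transcription factor *Irf1* (1.83-fold). These 5 of 38 genes became 1 without wild type 3 h replicate 1, wild type 3 h replicate 2 or wild type 0 h replicate 3, and 2 without wild type 0 h replicate 1 or 2. With the 6 wild type arrays alone and the replicate number as a block there were 9. The antiviral effectors of the list were not called, with log2 changes of 0.42 for *Isg15*, 0.58 for *Ifit1* and 0.54 for *Mx1*. The Gbp genes are related copies, and their probes may share signal. Antigen processing genes had a median log2 change of 0.28 over 18 genes, with *Tapbpl* (log2 change 0.85, adjusted p = 0.00163) just under 1.8-fold, *Psmb10* at 1.46-fold and *B2m* at 1.07-fold.

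The plasminogen system and the matrix metalloproteinases, with which cells dissolve matrix and fibrin, contributed 8 raised genes of 26, of which 4 were called without wild type 3 h replicate 1 and 5 without wild type 0 h replicate 2 or 3. *Serpinb2*, which encodes the plasminogen activator inhibitor PAI-2, had the largest rise of all probes. Its stronger responding probe read −2.87, −2.75 and −3.01 at 0 h and 0.23, −0.11 and 0.17 at 3 h (log2 fold change 2.97, standard error 0.21, adjusted p = 1.33e-05), and the brighter one rose 7.16-fold. *Plau*, the urokinase gene, gave a log2 change of 0.05 and was not called. Its receptor *Plaur* rose 1.91-fold. The stromelysin *Mmp3* (1.24, 1.13 and 0.84 at 0 h, 2.94, 2.32 and 2.33 at 3 h, log2 fold change 1.46, standard error 0.32, adjusted p = 0.0211), the stromelysin *Mmp10* (−2.71, −2.95 and −2.65 and −1.1, −1.63 and −1.41, log2 fold change 1.39, standard error 0.27, adjusted p = 0.0128) and the collagenase *Mmp13* (−1.81, −2.2 and −2.39 and −0.45, −0.78 and −0.92, log2 fold change 1.42, standard error 0.3, adjusted p = 0.0187) rose by similar amounts from different starting levels. *Mmp2* (−0.11), *Mmp14* (−0.03) and *Mmp9* (0.37) were not called, and *Timp1*, an inhibitor of these enzymes, was called at 1 of its 3 tested probes and not at the brightest.

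Raised genes were also found in the lists of immediate early factors and of MAP kinase phosphatases and signal regulators. Which signal raised them was not tested. *Maff*, a small Maf factor, changed from 2.4, 2.32 and 2.32 to 3.79, 3.81 and 3.75 (log2 fold change 1.44, standard error 0.09, adjusted p = 6.74e-06), and *Fosl1*, an AP-1 subunit, from 0.52, 0.46 and 0.58 to 1.81, 1.76 and 1.9 (log2 fold change 1.3, standard error 0.13, adjusted p = 0.000134). *Egr2* (0.36, 0.39 and 0.62 to 2.17, 1.91 and 2.51, log2 fold change 1.74, standard error 0.25, adjusted p = 0.00167) and *Fos* (−3.37, −3.49 and −3.38 to −1.98, −2.23 and −1.61, log2 fold change 1.48, standard error 0.21, adjusted p = 0.00180) rose as well. With *Nr4a1* (2.18-fold), *Batf* (2.13-fold), *Atf3* (2.11-fold), *Egr1* (2.06-fold), *Ier2* (1.98-fold) and *Hivep2* (1.95-fold), 10 of 39 rose, and without wild type 3 h replicate 3 there were 6. *Jun* (1.5-fold), *Junb* (1.67-fold) and *Myc* (1.58-fold) had adjusted p of 0.0194, 0.00643 and 0.000914 but lay under the fold limit. Of the signal regulators, *Rgs16* changed from 0.73, 0.88 and 0.89 to 2.69, 2.43 and 2.69 (log2 fold change 1.77, standard error 0.15, adjusted p = 8.35e-05) and *Errfi1*, an inhibitor of the EGF receptor, from 3.82, 4.03 and 3.99 to 5.18, 5.11 and 5.41 (log2 fold change 1.29, standard error 0.16, adjusted p = 0.000713). The MAP kinase phosphatases *Dusp8* (2.05-fold) and *Dusp6* (1.97-fold) rose, and *Spry4*, dim at 0 h, rose at least 1.95-fold. *Dusp1* (0.55) was not called at 3 h.

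Ligands of the EGF receptor rose beside them. *Ereg*, the epiregulin gene, changed from −2.74, −2.47 and −2.62 to −0.35, −0.32 and 0.03 (log2 fold change 2.4, standard error 0.16, adjusted p = 1.13e-05), and *Areg*, the amphiregulin gene, from −4.83, −4.33 and −4.02 to −2.65, −2.43 and −1.98 (log2 fold change 2.04, standard error 0.3, adjusted p = 0.00206), although *Areg* was well above background on 1 array at 0 h. *Ereg* had another tested probe that was not called. *Hbegf*, another ligand, measured 0.89 with an adjusted p of 0.0683. *Pdgfb*, a growth factor for mesenchymal cells, rose 2.51-fold and *Igfbp3* 1.96-fold, the remaining raised members of 37, while *Vegfa* measured 0.61 (adjusted p = 0.0478).

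Among the 15 largest rises at probes detected on all 6 arrays, 3 were of genes in no list. *Slc7a11*, which imports cystine for glutathione synthesis, had a log2 fold change of 2.25 at the ranked probe. A brighter probe of the gene changed from −1.84, −1.63 and −1.71 to 0.5, 0.4 and 0.51 (log2 fold change 2.2, standard error 0.11, adjusted p = 1.71e-06). The 3 called probes of *Slc7a11* rose 4.52- to 4.77-fold. *Ankrd33b*, of little known role, changed from −3.61, −3.59 and −3.95 to −1.62, −1.34 and −2.04 (log2 fold change 2.05, standard error 0.3, adjusted p = 0.00197). *Spib*, an Ets factor known from B and dendritic cells, changed from −3.67, −3.29 and −4.05 to −1.49, −1.66 and −1.84 (log2 fold change 2.01, standard error 0.47, adjusted p = 0.0322), and its call was lost in 7 of 17 alternative settings besides the normexp fit of all spots, with an adjusted p of up to 0.129. From levels not well above background at 0 h, *Icosl*, the ligand of the T cell co-stimulator ICOS, rose at least 4.2-fold, *Gpr37l1* at least 2.98-fold, *Sh2d4a* at least 2.64-fold and *Ccrl2*, a chemerin-binding receptor, at least 2.57-fold. The call of *Gpr37l1* was lost in 8 of 16 settings besides the normexp fit of all spots, with an adjusted p of up to 0.071. Further raised genes, chosen after their values were seen, were *Tnfaip2* (3.89-fold), *Slfn2* (3.96-fold), the RNA-destabilising factor *Zfp36* (2.62-fold), the receptor chain *Il15ra* (2.88-fold), the kinase *Jak2* (2.1-fold) and *Cd274* (1.98-fold), which encodes PD-L1.

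**Figure D3:**
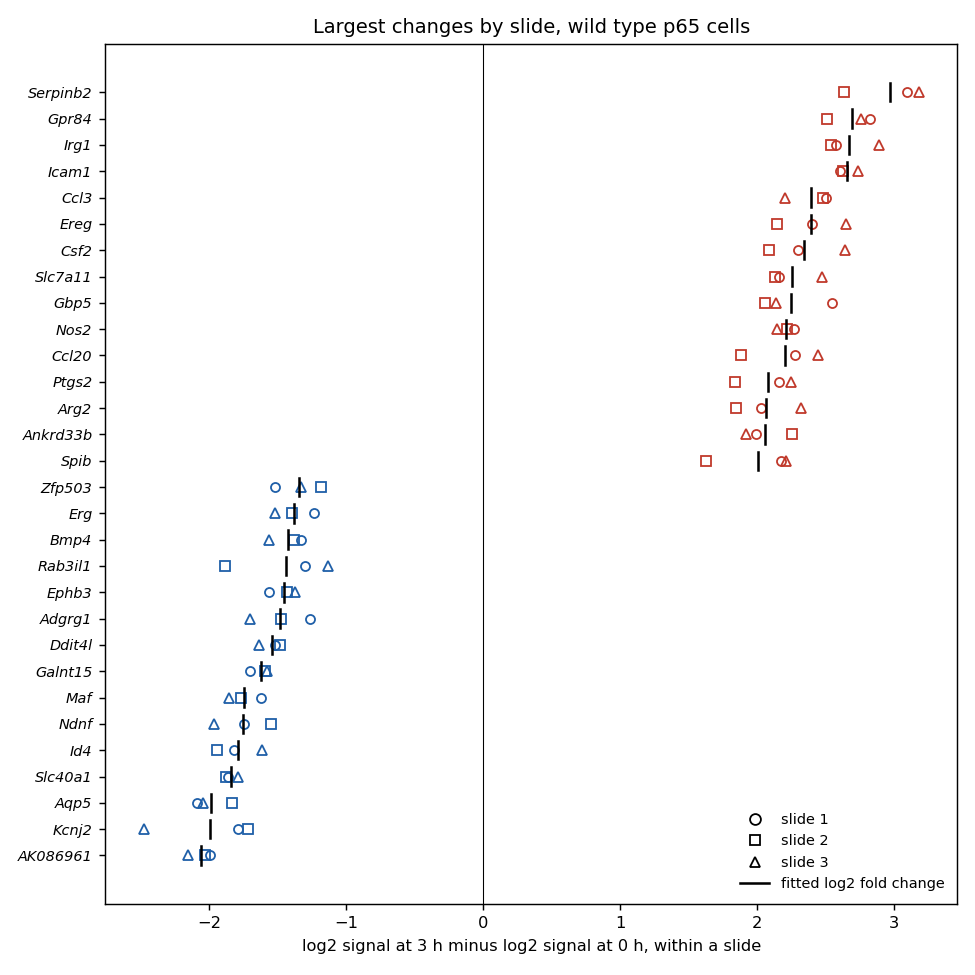
For the 15 raised (red) and 15 lowered (blue) genes with the largest change at probes detected on all 6 arrays, symbols give the difference in log2 signal between 3 h and 0 h within slides 1 to 3 (x axis) and the bar the fitted log2 fold change. The genes were also chosen for 1 sign on the 3 slides and no overlap, so all points of a gene lie on the same side of 0 by choice. Slide 3 gave the largest fall for *Kcnj2*, −2.48.

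Lowered genes were fewer than raised ones. The largest fall at a probe detected on all 6 arrays was that of a cDNA listed as AK086961, which read −1.13, −1.03 and −1.19 at 0 h and −3.13, −3.06 and −3.34 at 3 h (log2 fold change −2.06, standard error 0.21, adjusted p = 0.000192). Genes of transport came next. The potassium channel gene *Kcnj2* went from −1.92, −2.23 and −2.13 to −3.71, −3.95 and −4.61 (log2 fold change −1.99, standard error 0.25, adjusted p = 0.000770) and the water channel gene *Aqp5* from 1.67, 1.59 and 1.59 to −0.43, −0.25 and −0.45 (log2 fold change −1.99, standard error 0.11, adjusted p = 1.71e-06). *Slc40a1*, the gene of ferroportin, the cell's iron exporter, fell from −1.4, −1.35 and −1.51 to −3.26, −3.22 and −3.3 (log2 fold change −1.84, standard error 0.15, adjusted p = 4.23e-05). In the list of ion channels and aquaporins, 2 of 24 tested members fell and the other 22 were not called in either direction.

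Several transcription factors fell. *Maf* read 1.17, 1.13 and 1.08 at 0 h and −0.45, −0.63 and −0.78 at 3 h (log2 fold change −1.75, standard error 0.16, adjusted p = 8.95e-05), opposite in direction to *Maff* of the same family. *Id4* fell at both probes, the brighter from 0.69, 1.2 and 1.41 to −1.1, −0.42 and −0.1 (log2 fold change −1.64, standard error 0.33, adjusted p = 0.0143), and *Id3* from 3.78, 3.43 and 3.35 to 2.31, 2.27 and 2.0 (log2 fold change −1.32, standard error 0.16, adjusted p = 0.000713). The Id proteins block basic helix-loop-helix factors and are known targets of BMP signals. *Id1* had a log2 change of −0.67 (adjusted p = 0.0247) and *Id2* of 0.37 (adjusted p = 0.479), neither of them called. The 2 lowered genes of the immediate early list became 1 without wild type 3 h replicate 1 or wild type 0 h replicate 2 or 3. *Zfp503*, a zinc finger repressor, fell from 2.25, 2.06 and 2.32 to 0.72, 0.87 and 0.99 (log2 fold change −1.35, standard error 0.15, adjusted p = 0.000352) and *Erg*, an Ets factor, from −2.6, −3.0 and −2.79 to −3.83, −4.39 and −4.32 (log2 fold change −1.38, standard error 0.34, adjusted p = 0.0407), although the call of *Erg* was lost in 9 of 17 alternative settings besides the normexp fit of all spots, with an adjusted p of up to 0.14. The positional factors *Hoxa2* (−1.24), *Hoxa3* (−0.87) and *Foxd1* (−1.1), with log2 changes in parentheses, and the clock output factor *Dbp* (−1.03) also fell, and were chosen after their values were seen.

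In the list of TGF-β, BMP, Wnt and Notch signalling, 3 of 38 genes fell and none rose. *Bmp4*, a ligand that induces the Id genes, went from 0.67, 0.72 and 0.6 to −0.66, −0.66 and −0.97 (log2 fold change −1.43, standard error 0.13, adjusted p = 8.47e-05). *Smad6*, an inhibitor of BMP signalling that is itself induced by it, went from −1.26, −1.39 and −1.35 to −2.22, −2.22 and −2.33 (log2 fold change −0.92, standard error 0.12, adjusted p = 0.00109), and *Wnt5b* from 1.45, 1.01 and 1.3 to 0.46, 0.34 and 0.34 (log2 fold change −0.87, standard error 0.12, adjusted p = 0.00169). At more than 2-fold only *Bmp4* of this list remained. *Tgfb1* (0.24), *Smad7* (−0.02) and *Wnt5a* (−0.07) were not called. *Rgs2*, which limits Gq signalling, fell from 0.34, 0.09 and 0.25 to −0.76, −0.89 and −0.58 (log2 fold change −0.97, standard error 0.18, adjusted p = 0.00945), whereas *Rgs16* had risen.

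Genes of cell surface and secreted proteins were also among the lowered ones. *Ndnf*, a secreted neurotrophic factor, fell from 0.22, 0.06 and 0.05 to −1.52, −1.49 and −1.92 (log2 fold change −1.76, standard error 0.17, adjusted p = 0.000134). *Ephb3*, an ephrin receptor, went from 1.71, 1.57 and 1.65 to 0.15, 0.14 and 0.28 (log2 fold change −1.46, standard error 0.18, adjusted p = 0.000713) and *Adgrg1*, an adhesion G protein-coupled receptor, from −1.19, −1.15 and −0.41 to −2.45, −2.63 and −2.11 (log2 fold change −1.48, standard error 0.25, adjusted p = 0.00568). *Galnt15*, an enzyme of O-glycosylation, went from 0.49, 0.41 and 0.27 to −1.21, −1.19 and −1.31 (log2 fold change −1.63, standard error 0.11, adjusted p = 1.11e-05), *Ddit4l*, an inhibitor of mTOR signalling, fell by 1.55 and *Rab3il1*, an exchange factor for Rab3, by 1.44 on the log2 scale. *Npy1r*, a neuropeptide Y receptor, fell at least 2.26-fold and *Spon2* at least 2.02-fold, to levels not well above background. The same was true of E330013P04Rik (at least 1.82-fold), 2810422B04Rik (at least 1.76-fold) and *Auh* (at least 1.76-fold). The fitted change of these 5 genes turned positive with normexp background correction, and the calls of *Spon2*, E330013P04Rik and *Auh* were lost in 8, 8 and 7 of 16 other settings. Chosen after their values were seen, the matrix proteoglycan genes *Omd* (−1.15) and *Aspn* (−1.2), the collagen-binding integrin *Itga11* (−0.97), the stromal surface protein *Cd248* and the natriuretic peptide receptor *Npr3*, at 2 and 3 probes, were lowered, as were *Pdk4* (−1.32), which restrains glucose oxidation, and the pro-apoptotic *Bmf* (−1.34).

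Collagen genes stayed near their starting level, with *Col1a1* at −0.25, *Col1a2* at −0.24 and *Col3a1* at −0.11 (adjusted p = 0.272, 0.553 and 0.846), and 0 of 36 matrix genes called at their brightest probe. Without a limit on the fold, or without wild type 3 h replicate 1, 1 of them was lowered. The tenascin gene *Tnc* measured 0.6 at the brightest of its 3 probes and was raised at 1 of the others. The 37 cell cycle genes ranged from −0.38 to 0.36, with *Mki67* at 0.08 and *Ccnd1* at 0.12. Cholesterol and fatty acid genes ranged from −0.39 to 0.22 and the housekeeping genes from −0.26 to 0.14. A change of less than 1.8-fold in these genes was not called, which does not show that they were unaltered.

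Some called genes lay near each other on the chromosomes, in some pairs with up to 5 other tested genes between them. Of 186 raised and 72 lowered gene names found in the RefSeq table, 29 pairs of called genes lay within 200 kb with no other called gene between them. Of these, 21 pairs were raised together, 2 were lowered together and 6 were opposite. Raised together were the paralogues *Ereg* and *Areg*, *Cxcl10* and *Cxcl11*, *Sele* and *Selp*, *Ccl9* and *Ccl3*, *Gbp5* and *Gbp2*, *Saa3* and *Saa1*, *Mt2* and *Mt1*, and the run of *Mmp13*, *Mmp3* and *Mmp10*. *Fas* and *Ch25h*, which are not related, were also neighbours and both raised. The lowered pairs were *Aspn* with *Omd* and *Hoxa2* with *Hoxa3*. Neighbours with opposite calls included *Serpinb2* (raised) and *Serpinb8* (−0.88), of the same gene cluster, and *Tnip3* (raised) and *Ndnf* (lowered). The gaps were 10.7 kb for *Cxcl10* and *Cxcl11*, 64.3 kb for the serpins and 37.6 kb for *Tnip3* and *Ndnf*. This is a count of positions without a comparison to other genes, and clustering was not tested.

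The levels of these genes at 3 h in the other lines are given side by side, without a test of TNFα in those lines. In cells without p65, some raised genes were at or under the detection limit at 3 h, and below the wild type level at 0 h. *Saa3* read −6.83, −6.62 and −6.91 in pTV cells, none of them well above background, beside 4.47, 4.27 and 3.99 in wild type cells at 0 h. *Ccl20* read −6.62, −6.4 and −6.37, *Icam1* −5.94, −5.98 and −5.44, *Gpr84* −6.71, −6.54 and −7.05 and *Nos2* −6.1, −6.42 and −5.66 in pTV cells, likewise not well above background. *Fas* (0.64, −0.42 and 0.23), *Gbp2* (0.41, −0.65 and 0.07), *Il6* (−0.02, −0.82 and 0.03) and *Tnfaip3* (0.92, 0.55 and 0.8) were measured well above background in pTV cells but lower than in unstimulated wild type cells on every array.

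Another set of raised genes was as high or higher at 3 h in cells without p65 as in wild type cells. *Ptgs2* read 3.04, 2.64 and 3.1 in pTV cells, beside 2.14, 2.03 and 2.37 in wild type cells at 3 h and −0.02, 0.2 and 0.12 at 0 h. *Fosl1* read 3.07, 2.58 and 2.7 and *Ier3* 3.79, 3.81 and 3.86 in pTV cells, and in both every pTV array was above every wild type array. *Areg* read −0.55, −0.79 and −0.1, *Dusp8* 0.93, 0.58 and 0.86 and *Errfi1* 5.96, 5.59 and 5.77, again above the 3 h wild type arrays. *Maff* (4.11, 3.88 and 3.92) was slightly higher and *Fos* (−1.48, −2.22 and −1.53) overlapped with wild type cells at 3 h. These genes were chosen after their values were seen, and others of their lists read lower without p65, as *Ereg* (−0.96, −1.19 and −1.04 in pTV and −0.35, −0.32 and 0.03 in wild type cells after TNFα, adjusted p = 0.00338). In the fit of wild type over pTV at 3 h, which shares the wild type arrays, the log2 fold change was −0.75 for *Ptgs2* (adjusted p = 0.0171), −0.96 for *Fosl1* (adjusted p = 0.000210) and −1.87 for *Areg* (adjusted p = 0.000926), beside 6.27 for *Gpr84* (adjusted p = 1.32e-10) and 2.69 for *Il6* (adjusted p = 9.27e-06). Whether pTV cells hold these levels without TNFα cannot be told from these arrays.

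**Figure D4:**
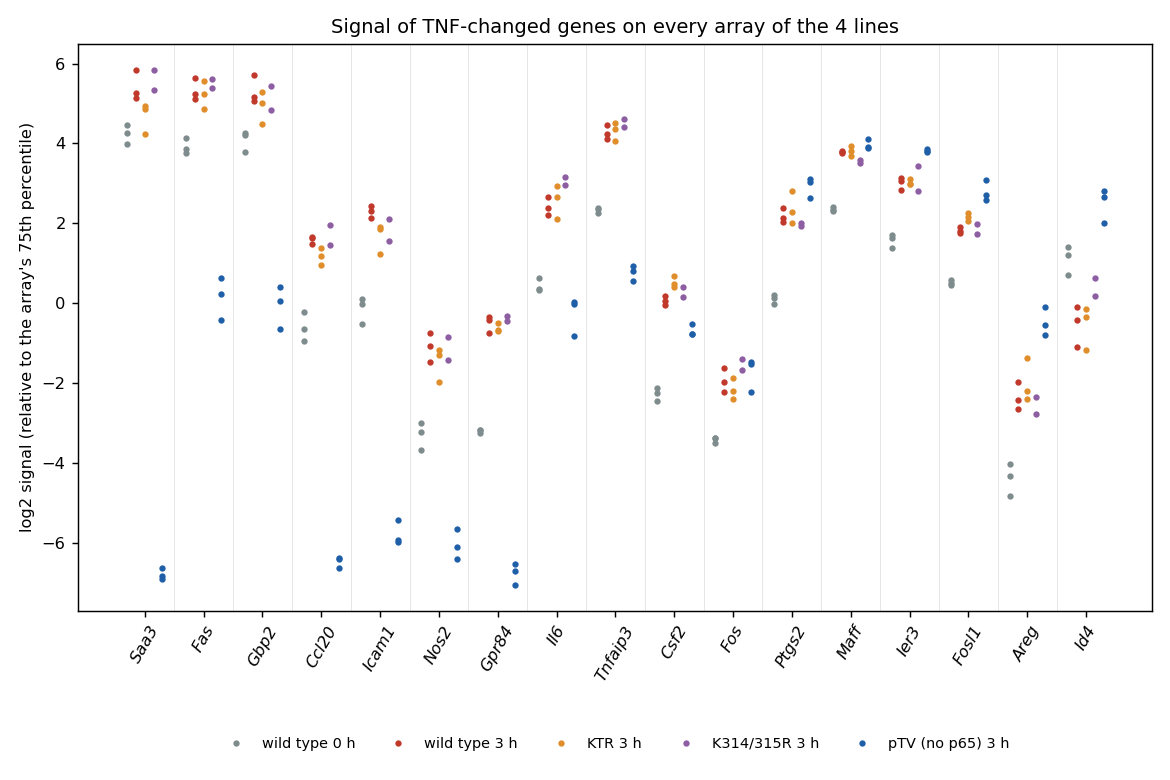
Each point is the log2 signal (y axis, relative to the array's 75th percentile) of 1 array for 16 raised genes and the lowered *Id4*, in wild type cells at 0 h (grey) and 3 h (red) and in KTR (orange), K314/315R (purple) and pTV cells (blue) at 3 h. From *Saa3* to *Tnfaip3* the pTV points lie below the grey ones, and from *Ptgs2* to *Areg* at or above the red ones. Genes were picked from those named in the text after their values were seen.

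Lowered genes also differed in their level without p65. In pTV cells *Aqp5* (−0.94, −0.66 and −0.86), *Bmp4* (−1.42, −1.19 and −1.54) and *Ndnf* (−2.3, −1.78 and −1.83) lay below every 0 h array of wild type cells, and *Ndnf* overlapped with wild type cells at 3 h. *Id4* was an exception, with 2.01, 2.81 and 2.65 in pTV cells, above the wild type cells at either time. *Slc40a1* (−2.26, −2.46 and −2.69) lay between the 3 h and the 0 h level of wild type cells. KTR and K314/315R cells had levels close to wild type cells at 3 h for *Aqp5* (means of −0.31 and −0.5, beside −0.38). For *Ccl20* the means were 1.18 and 1.71, beside 1.59. Its KTR arrays (1.18, 1.39 and 0.97) all lay below the wild type arrays at 3 h (1.64, 1.66 and 1.49). Genes with wider gaps, chosen after their values were seen, were *Gbp6*, at −1.56 in KTR and 0.04 in K314/315R cells beside −0.05 in wild type cells, and *Nfkbie*, at 2.71 and 3.46 beside 3.96. K314/315R lay on a slide of its own, so slide and line cannot be told apart there.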

How the data were processed

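RNA of 14 cultures was hybridised to 1-colour Agilent mouse arrays (2 to 3 arrays a group). The values used are the processed signal intensities that the authors deposited as scanner output, which per the file headers Feature Extraction had corrected for background and spatial trends; the authors' own Rosetta Resolver step cannot be repeated here. Control and outlier spots were left out, each array's log2 intensity was set to its 75th percentile, and spots of a probe were averaged. Probes that the software marked well above background throughout 1 group or more were fitted over the 14 arrays in limma 3.58.1 (R 4.3.3), contrast 3 h minus 0 h in wild type cells, two-sided, with Benjamini-Hochberg adjustment. All adjusted p are from this limma fit, those against pTV cells from its contrast of wild type over pTV at 3 h. A call needed more than 1.8-fold and an adjusted p under 0.05. A lower bound sets the detected time point against the lowest detected signal. The number of arrays limits the precision.

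Same-numbered 0 h and 3 h arrays shared a slide, and their deviations from the group means correlated (r = 0.455, 0.43 and 0.572). As slide and replicate number coincide there, this cannot tell paired cultures from a slide effect. The fit behind the standard errors, adjusted p and calls left the pairing out, and the replicate block was an alternative. The RNA was isolated on different days. Members and lists were chosen with earlier results of these data known. Named genes were the 15 largest changes each way at probes detected on all 6 arrays without overlap and with 1 sign on 3 slides, the 4 largest called per list and direction, the 5 largest bounds each way, and *Mmp10*, *Mmp13*, *Cfb*, *Mpa2l*, *Cxcl10*, *Rela*, *Nfkbia*, *Tnfaip3*, *Ccl2*, *Il6*, *Icam1* and *Vcam1*. Promoters were searched over the 250 bases before the start, leaving out the 50 bases after it that had been planned. Alternatives covered background correction, normalization, filter, block, arrays fitted, thresholds and each array left out. The fit was tested on simulated data, and the outcome is not given here. Some items are not reported here.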

Additional observations from a re-analysis of the deposited data

How the results depend on the processing

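Background correction moved the counts most. With normexp, 17 probes were raised and 6 lowered, and 28 of the called probes changed sign, among them 5 named lowered genes, *Npy1r* (0.33), *Spon2* (0.41), E330013P04Rik (0.60), 2810422B04Rik (0.28) and *Auh* (0.42). On wild type 3 h replicate 1, 9 spots lay more than 100 units under their local background (up to 65292), and the lower quartile after correction was 1752, beside 76.3 to 79.4 on the other wild type arrays. Without these spots, an alternative chosen after seeing the data, 177 were raised and 53 lowered. Restricting the test to probes detected on all 14 arrays gave 161 raised probes, an unadjusted p 149 lowered, a limit of 2-fold 59 lowered, and no limit on the fold 597 raised and 433 lowered (58% of calls raised, beside 72.7%). Leaving out 1 array gave 202 to 230 raised and 66 to 84 lowered. The replicate block, which pairs the wild type arrays of a slide, gave 275 raised and 128 lowered and kept all 250 and 94 calls. The slide as a block gave 276 and 121. Quantile normalization (270 and 80) and the authors' table (262 and 83) stayed within 1.5 times. Of 86 named probes with a call, 60 kept it in every setting but the first normexp fit and 26 lost it at least once, with no change of sign. The size of a change could still move. In these settings the log2 change ranged from −2.18 to −1.28 for *Kcnj2*, 1.41 to 2.17 for *Arg2* and 1.4 to 2.24 for *Ankrd33b*. Probes near background are limited by signal. Where no array of 1 time point was well above background, their folds are bounds. *Csf3*, *Sele*, *Areg* and the brighter probe of *Tnfsf11*, well above background on 1 array at 0 h, have fitted folds that are not exact. Besides the first normexp fit, their log2 changes ranged from 1.17 to 2.59, 0.95 to 2.15, 1.11 to 2.22 and 1.36 to 2.5.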
